A study of Homo sapiens with 33 samples.

Results

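The aryl hydrocarbon receptor (AHR), its partner ARNT, its repressor AHRR and 3 of its target genes, TIPARP, CYP1A1 and CYP1B1, were followed through 5 days of EGFR blockade in 3 established head and neck squamous cell carcinoma (HNSCC) cell lines. The 6 genes were taken by symbol from the count table, which lists 56470 symbols, and each was detected in all 33 libraries. Bulk poly(A) RNA-seq was made from SCC1, SCC6 (labelled UM-SCC-1 and UM-SCC-6) and SCC25 cells that received either PBS, the untreated control, or 100 nM cetuximab, an antibody that binds EGFR and blocks its ligands. Treatment started the day after seeding and the medium with drug or PBS was renewed daily. Each line had 6 PBS libraries, for days 0 to 5, and 5 cetuximab libraries, for days 1 to 5 in SCC1 and SCC25. In SCC6 both of the earliest cetuximab libraries were labelled day 2 and none day 1. The sources differ on the medium. The labels give hydrocortisone for SCC1 and, at a lower concentration, for SCC25, and high glucose medium with non-essential amino acids for SCC6, in which case line and medium cannot be told apart, whereas the study's methods give a single serum-supplemented medium for the 3 lines. Each day was a single library, and the days of a group stand in for replicates, so the spread and the p-values below include change over days.

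AHR is a transcription factor of the bHLH-PAS family that waits in the cytosol with HSP90 chaperones and PTGES3. Ligands, among them dioxins, polycyclic hydrocarbons and tryptophan metabolites, release it to the nucleus, where it pairs with ARNT and binds the xenobiotic response element. Its classic targets are the cytochromes CYP1A1 and CYP1B1, which oxidise many of the ligands, and a pair of feedback genes: AHRR, which competes with AHR for ARNT and for the DNA, and TIPARP, an ADP-ribosyltransferase that limits AHR activity. In squamous epithelium the receptor is known for a part in the response to pollutants and in keratinocyte differentiation.

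On GRCh37, the build that the submitters' processing notes name, GENCODE (release 44, lifted to that build) places AHR at chr7:16955983-17385776 on the plus strand, AHRR at chr5:321829-438406 on the plus strand and TIPARP at chr3:156391024-156424559 on the plus strand. ARNT lies at chr1:150782189-150849184, CYP1A1 at chr15:75011883-75017877 and CYP1B1 at chr2:38294116-38337044, all on the minus strand. The 1500 bases before the start of the canonical transcript were searched on both strands for the response element TNGCGTG, whose letters contain the core GCGTG. CYP1A1 held 5 matches and CYP1B1 held 4, whereas ARNT held 2, AHRR held 1 and AHR and TIPARP held none. Among 19894 windows of protein-coding genes 26.5% held at least 1 match, 4 windows, that of CYP1A1 included, held at least 5 and 12 held at least 4. The matches before the genes that rose most in SCC1 are printed with 7 flanking bases on each side, read 5′ to 3′ on the strand that spells the element, and the capitals mark the element. The matches are a description of the letters and no binding was measured. The windows of AHR and CYP1B1, and most of that of TIPARP, lie inside the interval given for the gene itself, because other transcripts start further upstream, and the CYP1B1 matches also lie inside the antisense gene CYP1B1-AS1.
CYP1A1, plus strand, chr15:75019241-75019261: gttgtatTTGCGTGcctagct
CYP1A1, minus strand, chr15:75018917-75018937: tccccccTCGCGTGactgcga
CYP1A1, plus strand, chr15:75018842-75018862: ccaggcgTTGCGTGagaagga
CYP1A1, plus strand, chr15:75018754-75018774: ggctagcTTGCGTGcgccggc
CYP1A1, plus strand, chr15:75018359-75018379: tcccggcTCGCGTGagaagcg
CYP1B1, plus strand, chr2:38304775-38304795: agagaggTTGCGTGacttaac
CYP1B1, plus strand, chr2:38304272-38304292: ccaccctTGGCGTGgggtgcc
CYP1B1, plus strand, chr2:38304136-38304156: ctgggctTTGCGTGcgccgct
CYP1B1, plus strand, chr2:38304117-38304137: ctcccctTTGCGTGcggagct
AHRR, plus strand, chr5:321790-321810: gggcggcTCGCGTGccggggt

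The total count per library ran from 28508539 to 80727185 with a median of 43001815, and the deepest libraries were the SCC6 cetuximab libraries of days 4 and 5. Every member had at least 118 counts in each library of days 1 to 5. For AHRR in SCC1, with 179 to 193 counts under PBS and 473 to 564 under cetuximab, counting error was not small beside the spread between days. Squamous markers TP63, CDH1, EPCAM, KRT17 and SFN were present in the 3 lines, but KRT5 and KRT14, the defining basal keratins, were at no more than 14.6 CPM and 12.5 CPM in any SCC6 library. The sum of the 6 fibroblast markers was higher with cetuximab than with PBS in each line. It was 95.2 to 220.4 CPM against 51.1 to 72.2 CPM in SCC1 and 9.77 to 97.6 CPM against 3.26 to 6.75 CPM in SCC6. In SCC25 it was 196.3 to 283.9 CPM against 144.6 to 168.4 CPM. THY1 was at or near 0 in SCC1 and SCC6. The SCC6 sum was mostly COL1A1 (7.75 to 88.4 CPM against 2.27 to 6.35 CPM). COL1A2 overlapped there (0.17 to 0.35 CPM against 0.11 to 0.40 CPM). In SCC25 COL1A1, PDGFRB and THY1 overlapped between treatments, and the median of THY1 was lower with cetuximab (1.53 CPM against 2.70 CPM). The summed squamous markers of SCC1 were also higher with cetuximab, at 6432 to 9969 CPM against 1786 to 2954 CPM. With cetuximab this sum was mostly KRT5 (2880 to 3710 CPM against 284.5 to 1045 CPM) and KRT17 (1553 to 4292 CPM against 372.9 to 796.5 CPM). KRT14 and CDH1 were also higher and TP63 and SFN overlapped. EPCAM was lower (124.1 to 180.4 CPM against 215.6 to 298.4 CPM). Of the 4 leukocyte markers CD3E and PTPRC were at or near 0, and the sum, mostly CD68, was lower with cetuximab in SCC1 (8.35 to 16.7 CPM against 18.6 to 53.4 CPM) and in SCC6 (3.96 to 7.21 CPM against 16.6 to 32.2 CPM). Of the 3 endothelial markers the sum was at most 2.78 CPM. The part of these markers in the results was not tested. The flow cell in the column names followed treatment closely: in SCC1 the PBS libraries of days 0 to 4 shared flow cell B, while PBS day 5 shared flow cell C with all 5 cetuximab libraries. Flow cell E held nothing but the last pair of treated SCC6 libraries, days 4 and 5.

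In SCC1 all 6 members were higher with cetuximab than with PBS over days 1 to 5, while in SCC6 the pathway split and in SCC25 only CYP1A1 passed the test. In SCC1 6 of 6 members passed, all higher, where 44.8% of 17984 genes passed and 22.7% passed as higher. In SCC6 AHRR and ARNT were higher and TIPARP lower, 3 of 6 members, where 30.1% of 17387 genes passed. In SCC25 1 of 6 members passed, as higher, where 18.3% of 19101 genes passed and 8.80% passed as higher. The median log2 change of the 6 members was 1.10 in SCC1, 0.16 in SCC6 and 0.07 in SCC25, against medians of 0.02, 0.00 and 0.01 over all genes tested. Calls throughout are edgeR quasi-likelihood tests with Benjamini-Hochberg adjustment over all genes tested, two-sided, at an adjusted p below 0.05, and levels are normalised read counts scaled to library size (CPM) given as mean ± SD over the 5 libraries of a group. In bulk RNA a change in the number of expressing cells and a change in the RNA of each cell cannot be told apart.

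**Figure D1:**
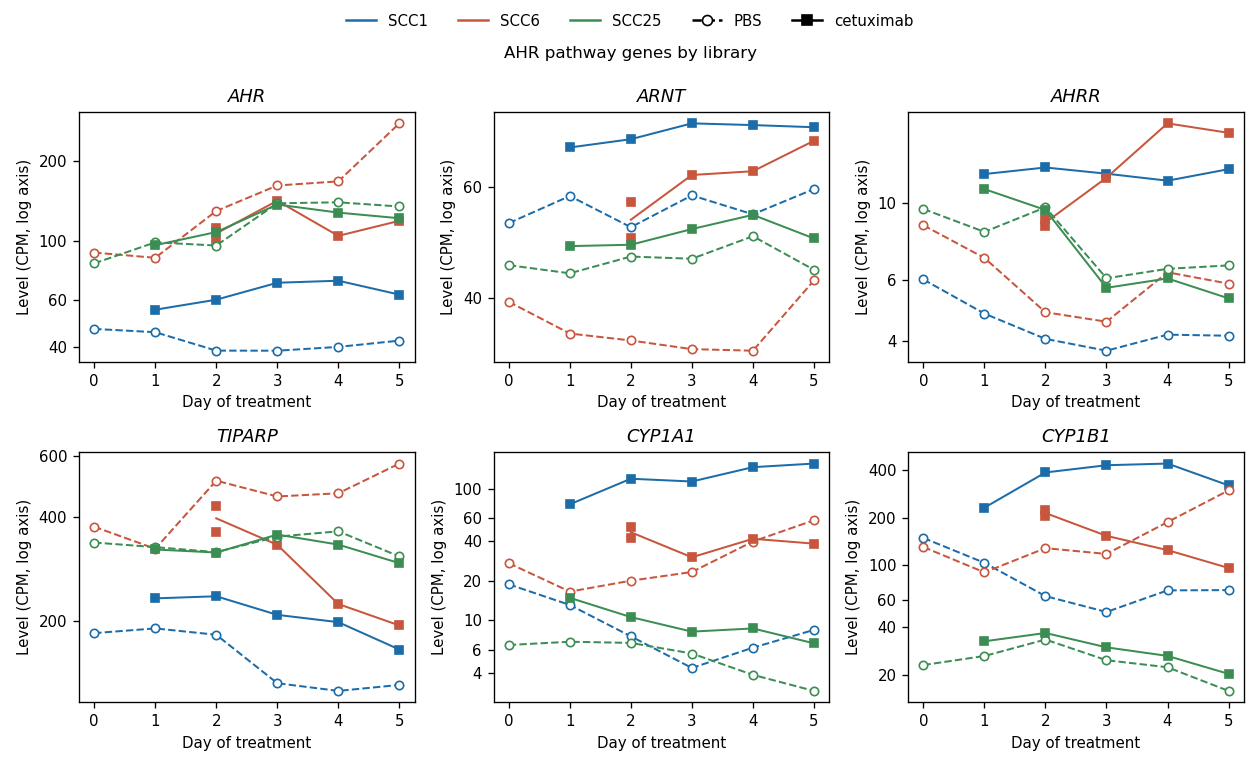
Level of each gene (CPM, log axis) against the day of treatment, with open circles and dashed lines for PBS, filled squares and solid lines for cetuximab, and a colour for each line. Each point is 1 library, and the SCC6 line starts at the mean of both libraries labelled day 2. In SCC1 the cetuximab points of AHR, ARNT, AHRR, CYP1A1 and CYP1B1 lie above every PBS point, whereas in SCC6 the PBS curves of CYP1A1 and CYP1B1 climb to 57.97 CPM and 298.1 CPM on day 5 and cross the cetuximab curves.

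CYP1A1, the cytochrome most used as a readout of AHR activity, had the largest change of the 6 genes in SCC1. Its level with PBS was 13.1, 7.57, 4.35, 6.20 and 8.47 CPM for days 1 to 5 in turn, and under cetuximab 76.7, 120.1, 114.4, 147.1 and 156.7 CPM. The groups were far apart, with the lowest cetuximab library above every PBS library. The mean rose from 7.94 ± 3.29 CPM to 123 ± 31.4 CPM (SD, n = 5), a log2 change of 3.97 (SE 0.28), that is 15.6-fold, with an edgeR adjusted p of 1.05e-06. The change ranked 23rd from the highest among 17984 genes. Within days the CYP1A1 ratio of cetuximab to PBS in SCC1 was 5.81, 15.7, 25.8, 23.3 and 18.3 from the first to the fifth day, so the lowest ratio came first. PBS day 5, sequenced beside the treated libraries, had a CYP1A1 level inside the range of the other PBS days.

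CYP1B1, a related cytochrome that also oxidises oestrogens, moved with it in SCC1. CYP1B1 was at 103.2, 63.3, 50.2, 68.9 and 69.2 CPM with PBS and at 231.5, 387.7, 431.1, 441.7 and 320.9 CPM with cetuximab on days 1 to 5. Here too the ranges did not overlap. The log2 change was 2.36 (SE 0.21), 5.14-fold, with an edgeR adjusted p of 3.79e-06.

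AHRR was low in SCC1 without drug and was higher with cetuximab on every day. With PBS its 5 libraries were at 4.81, 4.07, 3.76, 4.18 and 4.15 CPM, and with cetuximab at 12.1, 12.7, 12.2, 11.6 and 12.5 CPM. The treated level was nearly flat from day 1, at 12.2 ± 0.41 CPM, and no libraries overlapped. The log2 change was 1.55 (SE 0.08), with an edgeR adjusted p of 3.72e-07. AHR itself was at 41.0 ± 2.86 CPM with PBS and 63.9 ± 6.61 CPM with cetuximab, without overlap, a log2 change of 0.65 (SE 0.08) with an edgeR adjusted p of 3.42e-05. ARNT went from 56.3 ± 3.20 CPM to 73.1 ± 2.75 CPM, also without overlap, a log2 change of 0.39 (SE 0.05) with an edgeR adjusted p of 8.91e-05. Thus 5 of 6 members had cetuximab ranges above the PBS ranges in SCC1, where 15.3% of genes tested did.

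TIPARP had the weakest support in SCC1. Its PBS levels were 190.8, 182.9, 132.5, 125.9 and 131.0 CPM and its cetuximab levels 233.0, 236.3, 208.8, 198.9 and 165.8 CPM. The ranges overlapped, although the cetuximab library was higher than the PBS library on each of the 5 days. The log2 change was 0.46 (SE 0.14) with an edgeR adjusted p of 0.015. Adjusted for flow cell it was 0.68 with an edgeR adjusted p of 0.0662, whereas the other 5 members still passed in SCC1. That adjustment sets the cetuximab libraries against PBS day 5 alone, the only PBS library on their flow cell.

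**Figure D2:**
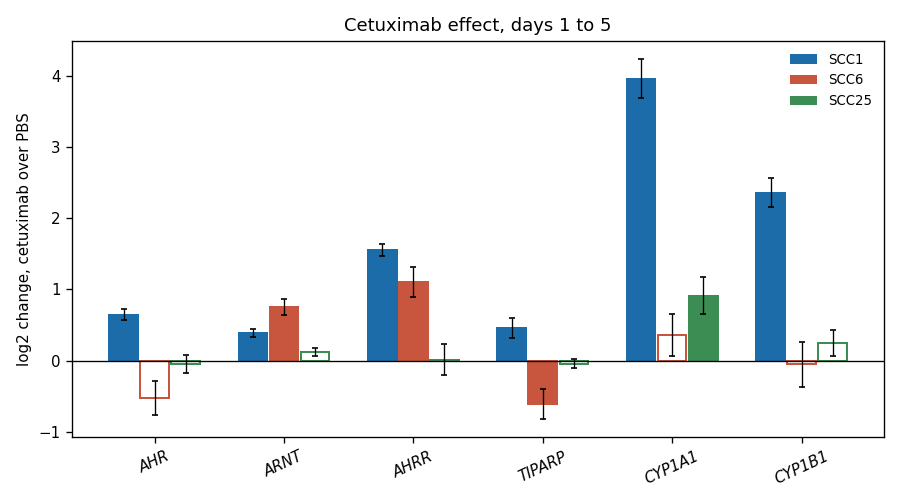
Log2 change of each gene, cetuximab over PBS on days 1 to 5, in SCC1, SCC6 and SCC25 (bars, with the SE of the edgeR fit; filled bars have an adjusted p below 0.05 and open bars do not). CYP1A1 stands at 3.97 in SCC1, 0.36 in SCC6 and 0.91 in SCC25, and TIPARP is above 0 in SCC1 and below 0 in SCC6.

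In SCC6, AHRR and ARNT rose as in SCC1, but AHR and TIPARP did not. AHRR was at 6.95, 4.85, 4.56, 6.32 and 5.86 CPM with PBS, day by day, and in treated cells at 8.98 and 8.60 CPM in the libraries labelled day 2, 11.8 CPM on day 3, 17.0 CPM on day 4 and 15.9 CPM on day 5. All treated libraries lay above all PBS libraries, and the later days were the highest. The log2 change was 1.11 with an edgeR adjusted p of 0.00263. ARNT was at 35.6 ± 3.99 CPM with PBS and 60.6 ± 7.93 CPM with cetuximab, also without overlap, a log2 change of 0.75 with an edgeR adjusted p of 0.00053. These were 2 of 6 members with non-overlapping higher ranges in SCC6, where 10.8% of genes tested had them.

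TIPARP in SCC6 was at 324.1, 509.7, 458.9, 468.8 and 571.2 CPM with PBS, and with cetuximab at 362.5 and 431.1 CPM in the libraries labelled day 2, then 332.7, 224.4 and 194.6 CPM. The treated level was below all PBS libraries on days 4 and 5 only. The log2 change over all days was -0.61 with an edgeR adjusted p of 0.0497. That call ended without any of 7 of the 10 libraries (PBS days 2, 3, 4 and 5 and cetuximab days 3, 4 and 5), with adjusted p from 0.0689 to 0.111. It also ended on library totals (adjusted p 0.0529), with day 0 added (adjusted p 0.0562) and with the day as a replicate block, with adjusted p of 0.0847 or 0.0898 depending on which library labelled day 2 stood for day 1. On days 3 to 5 alone, an alternative chosen after seeing the data, it was at -1.02 (adjusted p 0.00212).

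AHR in SCC6 was at 86.6, 130.0, 162.2, 168.1 and 278 CPM with PBS from the first day to the fifth and between 101.3 and 142.1 CPM with cetuximab. The PBS level climbed from day to day while the treated level did not, so the libraries of days 4 and 5 were apart. Over all days the log2 change of AHR was -0.52 with an edgeR adjusted p of 0.12. By edgeR it passed without PBS day 1 (-0.69, adjusted p 0.0155) and when adjusted for flow cell (-0.64, adjusted p 0.0461). The adjusted value sets cetuximab days 2 and 3 against PBS days 2 to 5, all on flow cell D, while the PBS level climbed. On days 3 to 5 alone, a choice made after seeing the data, AHR also passed by edgeR (-0.76, adjusted p 0.0134). The cytochromes did not pass over all days either, at 0.36 (edgeR adjusted p 0.398) for CYP1A1 and -0.05 (adjusted p 0.925) for CYP1B1.

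Split into periods, SCC6 showed higher cytochromes early and lower CYP1B1, TIPARP and AHR late. For days 4 and 5 treatment and flow cell cannot be separated in SCC6, since PBS was sequenced on D and cetuximab on E. The late values and the difference between the periods carry this limit, and the part of the flow cell in them was not tested. On days 1 to 3, where both libraries labelled day 2 belong whichever day they are, 4 of 6 members passed, all higher (20.3% of 19150 genes passed, 10.7% as higher): AHRR at 0.80, ARNT at 0.68, CYP1A1 at 1.02 (adjusted p 0.00669) and CYP1B1 at 0.76 (adjusted p 0.0237), all by edgeR. On days 4 and 5 5 of 6 passed (37.8% of genes did), with AHRR at 1.42 and ARNT at 0.82 higher and AHR at -1.0 (adjusted p 0.0178), CYP1B1 at -1.15 (adjusted p 0.00528) and TIPARP at -1.32 (adjusted p 0.000781) lower by edgeR. CYP1A1 was at -0.29 on days 4 and 5 (adjusted p 0.381), and TIPARP, at -0.23 on days 1 to 3, passed there without PBS day 1 (-0.38, adjusted p 0.0479).

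The libraries behind this split show that both arms moved. CYP1B1 in SCC6 went from 89.7 CPM with PBS on day 1 to 298.1 CPM on day 5, and with cetuximab from 203.8 and 224 CPM in the libraries labelled day 2 through 153.2 and 124.3 to 95.7 CPM on day 5. CYP1A1 went from 16.6 to 58.0 CPM with PBS between days 1 and 5 and stayed between 30.3 and 51.7 CPM with cetuximab. On day 5 the ratio of cetuximab to PBS was 0.66 for CYP1A1, 0.32 for CYP1B1, 0.34 for TIPARP and 0.43 for AHR, against 2.69 for AHRR and 1.66 for ARNT.

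The difference between the periods itself was -1.91 (SE 0.32) for CYP1B1, -1.31 (SE 0.32) for CYP1A1 and -1.09 (SE 0.25) for TIPARP on the log2 scale, each with an edgeR adjusted p of 0.0926. No member and none of the 19150 genes passed by edgeR (0 of each), 4 members had an unadjusted p below 0.05, and DESeq2 called 3 members and 2735 genes. The 3 members also passed by edgeR without PBS day 1, with adjusted p from 0.0149 to 0.0456, and without PBS day 3, with 0.0478 to 0.049. Within the periods some calls rested on single libraries. On days 1 to 3 that of AHRR ended without PBS day 2, PBS day 3 or cetuximab day 3 (adjusted p 0.0505 to 0.0599) and that of CYP1B1 without either library labelled day 2 (0.0595 and 0.0921). On days 4 and 5 that of AHR ended without cetuximab day 4, cetuximab day 5 or PBS day 5 (adjusted p 0.0634 to 0.183) and that of CYP1B1 without cetuximab day 5 (0.054) or PBS day 5 (-0.77, adjusted p 0.0578).

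**Figure D3:**
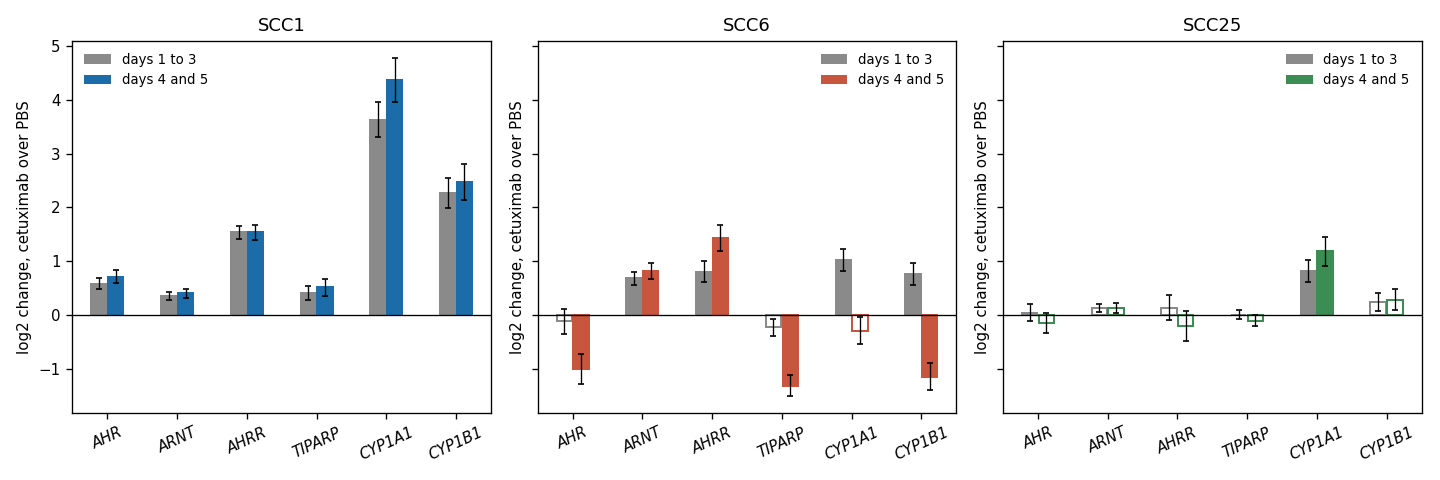
Log2 change, cetuximab over PBS, on days 1 to 3 (grey) and on days 4 and 5 (coloured) in the 3 lines; bars carry the SE of the edgeR fit and open bars did not pass. SCC1 has 6 filled bars in each period, SCC6 has CYP1B1 at 0.76 and then -1.15, and SCC25 has filled bars for CYP1A1 alone.

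In SCC1 all 6 members passed as higher on days 1 to 3, where 29.6% of 19660 genes passed and 14.0% as higher, and again on days 4 and 5, where 29.9% passed and 14.5% as higher. CYP1A1 stood at 3.63 (SE 0.32) and then 4.38 (SE 0.41), a difference of 0.75 with an edgeR adjusted p of 0.756. By edgeR 0 members and 0 genes differed between the periods in SCC1, with 0 members at an unadjusted p below 0.05 and 0 members by DESeq2. Adjusted for flow cell, only AHRR still passed on days 1 to 3 (1 of 6, where 210 of 20814 genes did), with CYP1A1 at 3.20 (adjusted p 0.0567), and TIPARP did not pass on days 4 and 5 (adjusted p 0.118). The period of days 1 to 3 holds no PBS library on the treated flow cell. On days 1 to 3 the call of TIPARP also ended without PBS day 3 (0.26), cetuximab day 1 or cetuximab day 2 (adjusted p 0.0632 to 0.0936). On days 4 and 5 that of TIPARP ended without PBS day 4, PBS day 5 or cetuximab day 4 (adjusted p 0.0837 to 0.179).

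SCC25 had the fewest members that passed. CYP1A1 was at 6.89, 6.74, 5.60, 3.85 and 2.91 CPM with PBS and at 14.9, 10.6, 8.22, 8.69 and 6.70 CPM under cetuximab from day 1 to day 5. Both arms were lower at the end than at the start, and on each of the 5 days the cetuximab library was the higher, by a ratio of 1.46 to 2.26. The ranges met only at their edges, where cetuximab day 5 fell below PBS days 1 and 2. The log2 change was 0.91 (SE 0.26), 1.88-fold, with an edgeR adjusted p of 0.0286. The call ended without cetuximab day 1 (0.73), PBS day 3 or PBS day 4, with adjusted p from 0.0514 to 0.0678.

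The other 5 members of SCC25 did not pass. CYP1B1 was at 0.25 (edgeR adjusted p 0.397), ARNT at 0.12, AHRR at 0.02, AHR at -0.05 and TIPARP at -0.05 on the log2 scale, and their ranges overlapped. CYP1B1 was nevertheless higher with cetuximab on each of the 5 days, by a ratio of 1.10 to 1.28, and with the day as a replicate block it passed at 0.27 with an edgeR adjusted p of 0.00813, beside CYP1A1. ARNT was also higher on each day, by a ratio of 1.04 to 1.12, and on library totals it passed at 0.17 with an edgeR adjusted p of 0.0498. By period CYP1A1 was the 1 member to pass, at 0.82 on days 1 to 3 (adjusted p 0.0407, where 7.84% of 20740 genes passed, 4.07% as higher) and at 1.18 on days 4 and 5 (adjusted p 0.0462, where 2.71% did, 1.49% as higher). These period calls of CYP1A1 ended without any of 9 and any of 8 of the 10 libraries, down to 0.57 without cetuximab day 1. Adjusted for flow cell the later value was 1.81, but no PBS library of SCC25 shared the flow cell of cetuximab days 4 and 5. Of the earlier cetuximab libraries only that of day 3 was on that flow cell, so the adjusted value leans on it. The difference between periods was called for 0 members and 0 genes by edgeR and for 0 members by DESeq2, with 0 members at an unadjusted p below 0.05.

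The lines differed in their response by a direct test. The effect in SCC6 minus that in SCC1 was -3.58 (SE 0.43) for CYP1A1, -2.39 (SE 0.38) for CYP1B1, -1.15 for AHR and -1.05 for TIPARP, and 0.39 for ARNT, with edgeR adjusted p from 4.36e-07 to 0.0108. These were 5 of 6 members, where 19.3% of 21414 genes passed, and AHRR was at -0.42 with an adjusted p of 0.319. Adjusted for flow cell the difference of ARNT was 0.37 (adjusted p 0.112). SCC25 minus SCC1 gave -3.04 (SE 0.44) for CYP1A1, -2.10 (SE 0.38) for CYP1B1 and -1.52 (SE 0.27) for AHRR, 3 of 6 members, all lower, where 8.52% of genes passed and 4.17% as lower, with edgeR adjusted p from 1.86e-05 to 0.000389. AHR was at -0.68 (edgeR adjusted p 0.102) and at -0.67 with a replicate block of line and day (edgeR adjusted p 0.0443). It also passed without SCC6 PBS day 1 or day 5. These libraries belong to neither line compared and enter through the shared filter, scaling, estimate of the spread and adjustment over genes. SCC25 minus SCC6 gave -1.11 for AHRR and -0.64 for ARNT, 2 of 6 members, both lower, where 17.5% of genes passed and 10.2% as lower. Adjusted for flow cell the difference of AHRR was -0.41 (adjusted p 0.307). Without SCC6 PBS day 1, AHR (0.63) and TIPARP (0.66) passed as well, 4 of 6 members. TIPARP (0.69) also passed without the SCC6 cetuximab library labelled day 2 that held 431.1 CPM of TIPARP. These comparisons share libraries, since each line enters 2 of them.

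Without drug the 3 lines held the members at different levels. To set genes side by side, CPM was divided by the length of the canonical transcript in kb, and on that scale TIPARP was the highest member in every line, at 39.5 ± 8.15 in SCC1, 120.8 ± 23.6 in SCC6 and 86.4 ± 6.08 in SCC25 CPM per kb, while AHRR was the lowest, at 0.74 ± 0.07, 1.01 ± 0.18 and 1.31 ± 0.27 CPM per kb. AHR was at 6.57 ± 0.46 CPM per kb in SCC1, 26.4 ± 11.4 in SCC6 and 19.5 ± 3.56 in SCC25. CYP1A1 stood at 3.05 ± 1.26, 12.1 ± 6.63 and 2.00 ± 0.68 CPM per kb in the same order, and CYP1B1 at 13.6 ± 3.76, 31.5 ± 15.9 and 4.71 ± 1.23.

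**Figure D4:**
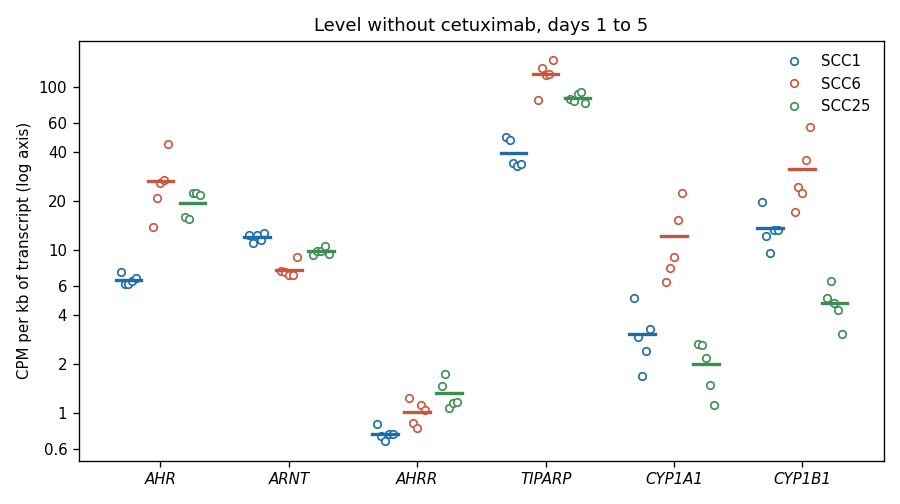
Level of each gene with PBS on days 1 to 5 (CPM per kb of transcript, log axis); each circle is 1 library, in day order from left to right, and the bar is the mean of 5. TIPARP is highest and AHRR lowest in each line, and the SCC6 circles of AHR, CYP1A1 and CYP1B1 are highest on day 5.

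SCC1, where the changes of CYP1A1 and CYP1B1 were largest, had the lowest AHR without drug. Whether the AHR level and the response are linked was not tested. Over the 5 PBS libraries AHR was 4.05-fold higher in SCC6 and 2.99-fold higher in SCC25 than in SCC1 (edgeR adjusted p 3.44e-07 and 5.57e-06). The log2 difference of AHR between SCC6 and SCC1 was 2.02, and 1.06 adjusted for flow cell. On days 1 to 5 the PBS libraries of these lines share only flow cell C, which held SCC1 day 5 and SCC6 day 1. Values of this pair of lines adjusted for flow cell rest on those libraries of unlike days. The AHR difference of SCC25 from SCC6 did not pass (-0.44, adjusted p 0.0752), although without SCC6 PBS day 1 it did (-0.61, adjusted p 0.0041). ARNT had the opposite order, highest in SCC1, with log2 differences of -0.65 for SCC6 and -0.28 for SCC25. All 6 members differed between SCC6 and SCC1, 5 of 6 between SCC25 and SCC1 and 5 of 6 between SCC25 and SCC6, where 69.1%, 68.4% and 72.1% of 19744 genes did. The difference of CYP1A1 between SCC25 and SCC1 did not pass (-0.60, adjusted p 0.14), but with day 0 added it did (-0.85, adjusted p 0.0346). In SCC6 CYP1A1 and CYP1B1 were 4.01-fold and 2.33-fold higher than in SCC1 (edgeR adjusted p 7.26e-05 and 0.000868), and adjusted for flow cell these log2 differences were 0.99 (adjusted p 0.304) and 0.39 (adjusted p 0.609). No PBS library of another line shared the flow cell of the SCC25 PBS libraries, so that line and flow cell cannot be told apart there. Of the feedback genes, TIPARP was higher by 1.62 in SCC6 and 1.14 in SCC25 than in SCC1, and AHRR by 0.46 and 0.83. The AHRR difference between SCC6 and SCC1 ended with no filter (0.40, adjusted p 0.0503) and on library totals (0.28, adjusted p 0.128), which move every log2 difference of that pair of lines by -0.17, and was 0.76 adjusted for flow cell (adjusted p 0.0443). That between SCC25 and SCC6 (0.38, adjusted p 0.0303) ended with day 0 added (adjusted p 0.0879) and without SCC25 PBS day 1 or day 2 or SCC6 PBS day 2 or day 3, with adjusted p from 0.0713 to 0.112.

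The PBS libraries changed over the days as well. In SCC6, PBS days 0 and 1 were on flow cell C and days 2 to 5 on flow cell D. Its slopes therefore cannot tell day fully apart from flow cell, and no slope was adjusted for flow cell. Per day, over days 0 to 5, AHR rose by 0.31 (SE 0.04) in SCC6 and by 0.16 (SE 0.03) in SCC25 on the log2 scale, with edgeR adjusted p of 0.00102 and 0.00198. In SCC6 CYP1A1 (0.25), CYP1B1 (0.24) and TIPARP (0.11) rose too, so that 4 of 6 members passed, all upwards, where 32.7% of 17757 genes passed and 13.9% upwards. In SCC25 CYP1A1 fell by 0.24 per day, with an adjusted p of 0.00703, making 2 of 6 members where 10.7% of genes passed. In SCC1 0 members passed by edgeR, where 2.49% of genes did, 4 had an unadjusted p below 0.05, DESeq2 called 2 and without PBS day 5 edgeR called 3. The SCC1 slopes were -0.28 for CYP1A1, -0.22 for CYP1B1 and -0.14 for TIPARP (adjusted p 0.0511). Without SCC6 PBS day 5 the slopes of CYP1A1 (0.14), CYP1B1 (0.13) and TIPARP (0.10) no longer passed. Without PBS day 0 those of CYP1A1 and CYP1B1 were 0.45 and 0.39 (adjusted p 0.00431 and 0.00869), and by DESeq2 that of CYP1A1 did not pass (0.24, adjusted p 0.0963). In SCC6 they also ended without PBS day 1 for all 3, without day 4 for CYP1A1 and TIPARP, and without day 0 or day 3 for TIPARP. In SCC25 that of CYP1A1 ended without PBS day 5 (-0.17, adjusted p 0.0866).

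Of 15 other genes described as AHR targets, 14 were tested in each line. In SCC1 8 were higher and 4 lower, where 22.7% and 22.1% of all genes were. In SCC6 4 were higher and 4 lower (15.6% and 14.6% of all genes), and in SCC25 4 and 5 (8.80% and 9.50%). The median log2 change of the list was 0.33, 0.27 and -0.17, against 0.02, 0.00 and 0.01 over all genes. The higher genes were mostly enzymes and transporters of xenobiotic metabolism. UGT1A6, a glucuronosyltransferase, went from 3.64 ± 1.79 to 33.4 ± 8.89 CPM in SCC1, 9.28-fold (edgeR adjusted p 6.04e-06), from 35.1 ± 14.0 to 144.5 ± 35.6 CPM in SCC6, 4.07-fold, and from 57.4 ± 6.46 to 77.3 ± 7.37 CPM in SCC25, 1.34-fold. UGT1A1 rose alongside, by 2.12, 1.87 and 0.31 on the log2 scale, but the UGT1A genes share exons, so how the reads were divided among them is uncertain. ALDH3A1, an aldehyde dehydrogenase, was higher by 1.65 in SCC1 and 1.15 in SCC25 and stood at 0.97 in SCC6 (edgeR adjusted p 0.0691). In SCC1 the drug efflux pump ABCG2 (1.40), CYP1A2 (0.87), the amino acid transporter SLC7A5 (0.76), the quinone reductase NQO1 (0.45) and the antioxidant regulator NFE2L2 (0.21) were also higher, and CYP1A2 (0.95) and SLC7A5 (0.87) were higher in SCC6. CYP1A2, which lies beside CYP1A1, was at no more than 1.46 CPM.

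The lower genes of that list are not enzymes of xenobiotic metabolism and were lower in all 3 lines. They were the EGFR ligand EREG (-1.32, -2.53 and -1.36 in SCC1, SCC6 and SCC25), the cytokine IL1B (-2.94, -2.19 and -0.53), the plasminogen activator inhibitor SERPINB2 (-1.56, -4.11 and -1.80) and the prostaglandin synthase PTGS2 (-1.09, -1.70 and -0.51). In SCC25 STC2 was lower as well (-0.67). Adjusted for flow cell only 1 target was higher in SCC25, where that fit rests on cetuximab days 1 and 2 against PBS on flow cell A. Leaving out a library gave 2 to 4 higher and 3 to 5 lower in SCC25. The fewest higher came without PBS day 2 and the fewest lower without PBS day 3, PBS day 4 or cetuximab day 5.

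The shares of all genes that passed over days 1 to 5, to be read beside the counts of these lists, were 44.8%, 30.1% and 18.3% in SCC1, SCC6 and SCC25. Of the chaperone genes HSP90AA1 (-0.73, -0.74 and -0.25 in SCC1, SCC6 and SCC25) and HSP90AB1 (-0.40, -0.41 and -0.25) were lower in all lines, and PTGES3 was lower in SCC1 (-0.34) and SCC6 (-0.53). Of 7 enzymes of tryptophan catabolism, a source of AHR ligands, 5, 4 and 6 were tested in SCC1, SCC6 and SCC25 and 2, 2 and 1 passed, and KMO was higher in the 3 lines (0.69, 1.65 and 0.83) at levels of at most 3.86 CPM. IL4I1 was lower in SCC1 (-2.08) and KYNU in SCC6 (-1.74). IDO1 did not pass over days 1 to 5 in SCC1 or SCC25, the lines where it was tested, at most 0.51 and 2.63 CPM. On days 1 to 3 it was higher in SCC1 (2.43, edgeR adjusted p 0.0216). Its SCC1 libraries of days 1 to 5 held only 1 to 14 counts with PBS and 6 to 21 with cetuximab. Of 16 other bHLH-PAS factors and coactivators, 13, 13 and 14 were tested and 6, 5 and 4 passed in that order. SCC1 had 4 higher and 2 lower, SCC6 had 2 higher and 3 lower, and SCC25 had 2 of each. The coactivator NCOA1 was higher (0.41, 0.62 and 0.35) and the clock factor ARNTL2 lower (-0.96, -1.23 and -0.28) in all 3 lines. The hypoxia factor EPAS1 was higher in SCC1 (0.57) and SCC6 (0.77), NCOA2 in SCC1 (0.75) and SCC25 (0.25) and NCOA3 in SCC1 (0.57), while SIM2 was lower in SCC1 (-0.46), ARNT2 (-1.74) and NPAS2 (-1.33) in SCC6 and ARNTL in SCC25 (-0.39).

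Some of these calls rested on few libraries. In SCC1 those of NQO1, KMO and NFE2L2 ended without any of 7, 5 and 3 of the 10 libraries. In SCC6 that of PTGES3 ended without any of 5. In SCC25 those of HSP90AA1, IL1B, UGT1A1, ARNTL2, HSP90AB1, PTGS2 and NCOA1 ended without any of 7, 7, 6, 4, 3, 3 and 2, and that of NQO1 without 1. Adjusted for flow cell, CYP1A2, EPAS1, PTGES3, SIM2, KMO and NFE2L2 did not pass in SCC1, nor EPAS1 in SCC6, nor UGT1A6, UGT1A1, NQO1, HSP90AA1, HSP90AB1 and NCOA1 in SCC25.

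The antisense RNA CYP1B1-AS1, which overlaps CYP1B1 by 36455 bases on the other strand, stood at -1.03 in SCC1 (edgeR adjusted p 2.51e-05), -0.55 in SCC6 (adjusted p 0.0898) and -0.26 in SCC25 (adjusted p 0.0239). TIPARP-AS1, which overlaps TIPARP by 1212 bases, was at 0.56 in SCC1 (adjusted p 0.0374), and this call ended under DESeq2, with no filter, adjusted for flow cell, with day 0 added, with the day as a replicate block and without any of 8 of the 10 libraries, with adjusted p from 0.051 to 0.563. The call of CYP1B1-AS1 in SCC25 ended adjusted for flow cell, with day 0 added and without any of 5 of the 10 libraries, with adjusted p from 0.0514 to 0.226. The library kit keeps the strand, but how the quantification used it is not given in the sources used here, so reads of these pairs may not have been fully separated. PDCD6, which ends 6739 bases before AHRR on the same strand, was lower in SCC1 (-0.33), a call that ended adjusted for flow cell (adjusted p 0.54), and EXOC3, which follows AHRR, passed in no line.

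Across all 33 libraries, with each line's mean removed from log2 CPM, the gene most like CYP1A1 among 12542 was CYP1B1, with a Pearson r of 0.94, and the gene most like CYP1B1 was CYP1A1. Within lines, over 11 libraries each, the correlation of the pair was 0.98, 0.75 and 0.81 for SCC1, SCC6 and SCC25. CYP1A1 was followed by CREG2, VAV3, GRAMD2 and TMEM254 (r 0.92 for each), and CYP1B1 by TNFRSF21 (0.89), CREG2 (0.88), TFAP2C (0.86) and MPP7 (0.86). AHR was most like CTAGE5 (0.90), PPCS (0.87) and SCAMP1 (0.87), and TIPARP most like NDUFAF7 (0.86), HSDL2 (0.85) and TMEM230 (0.84). Within lines some of these were uneven, with r of 0.98, 0.67 and 0.33 in SCC1, SCC6 and SCC25 for CREG2 with CYP1A1, 0.97, 0.49 and -0.38 for TFAP2C with CYP1B1, and 0.86, 0.93 and 0.07 for TMEM230 with TIPARP. The libraries share days and treatment, so the correlations are a description.

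Within lines the members did not keep a fixed order of likeness. Over the 11 libraries of SCC1 the correlation of AHR with CYP1A1 was 0.97 and with CYP1B1 0.98. The same values were 0.41 and 0.59 for SCC6 and -0.45 and -0.38 for SCC25. AHRR and TIPARP, both feedback genes, had an r of 0.74 in SCC1, -0.89 in SCC6 and -0.17 in SCC25. AHRR and ARNT were alike in SCC1 (0.90) and SCC6 (0.90) and not in SCC25 (-0.42).

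**Figure D5:**
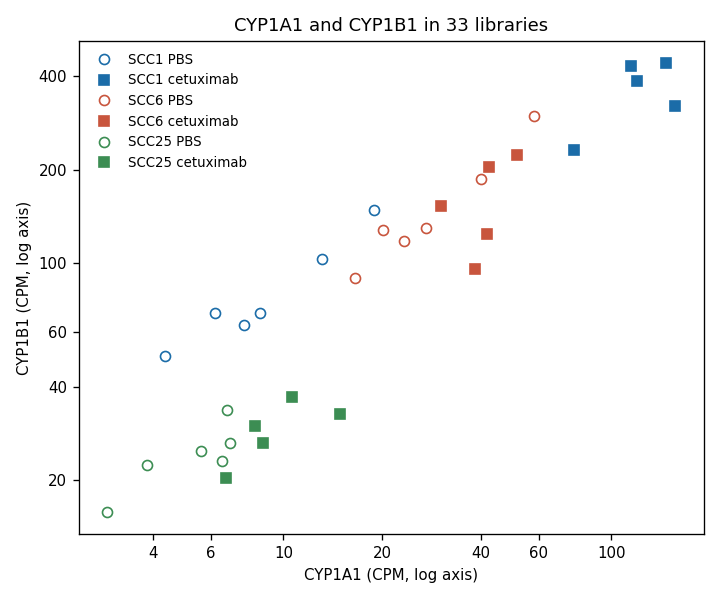
CYP1B1 against CYP1A1 (CPM, log axes) in all 33 libraries, with open circles for PBS, filled squares for cetuximab and a colour for each line. The treated SCC1 libraries sit at the upper right, from 76.7 CPM of CYP1A1 upwards, and the SCC25 libraries of both groups at the lower left.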

How the data were processed

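Poly(A) RNA was sequenced by the authors in 33 libraries. The deposited table holds estimated counts per gene symbol, made with Salmon 0.8.2 on hg19/GRCh37 per the submitters' processing notes and exported with tximport. No source used here gives the annotation or the strand setting. Of values above 0, 29.2% were whole. The expected counts were rounded to whole numbers, genes were filtered with filterByExpr, scaled by TMM and tested with edgeR 4.0.16 (quasi-likelihood F test, trended dispersion, R 4.3.3). The SE is the size of the log2 change over the root of F. CPM used TMM factors over all 33 libraries, and ratios of single libraries added 0.1 CPM. The methods of the study name DESeq2, used here (1.42.0) as an alternative. The others were other size factors, library totals, no filter, the flow cell as a covariate, day 0 added, the day as a replicate block and leaving out each library. The labels give the day, which pairs libraries. Correlations of their deviations were 0.063 to 0.209 in SCC1 and 0.125 to 0.256 in SCC25, and in SCC6, where no cetuximab library was labelled day 1, from -0.279 to 0.313. All 6 members are named in every comparison, and of the other lists, counted whole, genes that passed in at least 1 line. Genes of like pattern are those with the highest r, for 4 members. A gene of the lists is not reported here. Members and lists were chosen with earlier results of these data known. No libraries of a group agreed within sampling noise. Nothing says that the libraries came from separate cultures beyond their day. Positions, transcript lengths and the sequences are from GRCh37 and GENCODE. Fits were tested on simulated data.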

Additional observations from a re-analysis of the deposited data

Results flagged for a closer look

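The level of ARNT in SCC6 with PBS on day 5 was 42.62 CPM, far from the other 4 libraries of its group, which lay between 33.01 and 35.14 CPM. Of 36 such groups of 5 libraries this was the 1 where the gap at an end was a larger share of the range than Dixon's limit, and chance passes that limit in about 1 of 20 groups.

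The effect of cetuximab differed between lines by the test of the difference itself for 10 combinations of member and lines. In SCC6 against SCC1 the log2 differences were -1.15 for AHR, 0.39 for ARNT, -3.58 for CYP1A1, -2.39 for CYP1B1 and -1.05 for TIPARP. In SCC25 against SCC1 they were -1.52 for AHRR, -3.04 for CYP1A1 and -2.10 for CYP1B1. In SCC25 against SCC6 they were -1.11 for AHRR and -0.64 for ARNT.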

How the results depend on the processing

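Of 1884 values of members under alternatives, 1751 kept their direction and their side of the threshold, 78 lost and 27 gained the call, and 28 changed sign; no member that changed sign had been called. In SCC6 CYP1A1 was at -0.15 on days 3 to 5 alone, an alternative chosen after seeing the data, as were those within each period. CYP1B1 in SCC6 was at 0.079 adjusted for flow cell, 0.000 with day 0 added, 0.026 and 0.023 with the day as a replicate block, and from -0.21 to 0.27 without single libraries. In SCC25 AHR was at 0.006 on library totals and 0.048 with day 0 added, AHRR at -0.041 with day 0 added and -0.013 with the replicate block, and TIPARP at 0.007 on library totals; without single libraries they ran from -0.121 to 0.033, -0.148 to 0.130 and -0.071 to 0.003. SIM2 in SCC1, called lower, was at 0.023 adjusted for flow cell. Without single libraries the SCC25 minus SCC6 difference of CYP1B1 ran from -0.048 to 0.440, and in SCC6 the period difference of ARNT from -0.044 to 0.339, AHR on days 1 to 3 from -0.32 to 0.09 and CYP1A1 on days 4 and 5 from -0.534 to 0.009.

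Counts of members that passed moved as follows. SCC25 had 2 on library totals and 2 with the replicate block, and 0 to 1 without single libraries, in both its periods as well. SCC25 minus SCC6 had 1 adjusted for flow cell and 2 to 4 without single libraries. The SCC1 day trend had 2 by DESeq2, 1 on library totals, 1 without a filter and 0 to 3 without single libraries; the SCC6 trend had 1 to 4 and the SCC25 trend 1 to 3. SCC1 on days 1 to 3 had 1 adjusted for flow cell. The SCC6 period difference had 3 by DESeq2, 4 without a filter and 0 to 3 without single libraries, and SCC6 on days 4 and 5 had 3 to 5. Over all genes, adjusting for flow cell gave 4099 calls in place of 8061 in SCC1, 1364 in place of 3496 in SCC25, 2263, 884 and 1721 in place of 4128, 1824 and 3750 for SCC6 minus SCC1, SCC25 minus SCC1 and SCC25 minus SCC6, 210 in place of 5818 in SCC1 on days 1 to 3, and 3302 and 2347 in place of 1626 and 562 in the early and late SCC25 periods. DESeq2 gave 1468 in place of 474 for the SCC1 trend, 1168 in place of 562 for SCC25 on days 4 and 5, and 31, 2735 and 3 in place of 0 for the period differences of SCC1, SCC6 and SCC25, which no filter brought to 202, 3366 and 7. Trends over days 1 to 5 had 99, 1892 and 1090 calls in place of 474, 5812 and 2147. The cause was not tested. Beyond the calls named in the report, the replicate block changed no call of a member. Among the other AHR targets it gave 6 lower in place of 5 in SCC25. In SCC6 it gave 5 higher in place of 4, whichever library labelled day 2 stood for day 1. The flow cell could not be fitted for SCC6 on days 4 and 5 or its period difference. Each day of a group had 1 library, so the spread within a day was not measured, except for both SCC6 cetuximab libraries labelled day 2.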
